A study of Homo sapiens with 6 samples.

Results

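The NR4A orphan nuclear receptors are 3 genes, NR4A1, NR4A2 and NR4A3, found as the rows of the deposited expression table whose symbol starts with NR4A, 3 of 6339 rows in all. They were measured by RNA-seq in ME-1, an established cell line of human acute myeloid leukaemia with inv(16), the chromosome inversion whose product is the fusion protein CBFβ-SMMHC. One group of 3 libraries came from ME-1 cells kept for 6 h with 1 µM AI-10-49, an inhibitor that attaches to CBFβ-SMMHC and keeps the transcription factor RUNX1 free of it. The other 3 libraries came from ME-1 cells kept for 6 h with DMSO, the solvent. Both groups carry inv(16), and all libraries are of 1 cell line at 1 dose and 1 time. The labels describe 3 independent experiments per treatment and 90 bp paired-end reads. One library, AI-10-49 replicate 2, stood apart by reading low in the most abundant rows. Its maximum was 159 FPKM, where AI-10-49 replicates 1 and 3 reached 1843 and 1877 FPKM. The fold changes of the receptors and some other results are given with and without that library.

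NR4A receptors are transcription factors of the nuclear receptor superfamily for which no physiological ligand is established, so their activity is set largely by how much of them a cell makes. They are immediate early genes: cyclic AMP acting through CREB, calcium acting through MEF2 and growth factor signals through ERK switch them on without new protein synthesis. They bind the NBRE, a short DNA element, as monomers, and NR4A1 and NR4A2 also pair with retinoid X receptors. In mice, joint loss of the genes for NR4A1 and NR4A3 leads to acute myeloid leukaemia, and both are regarded as tumour suppressors of myeloid cells.

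The promoter of NR4A3 is shown because the CREB half-site, TGACG, recurs in it. The window runs from 250 bases before to 50 bases after the annotated start, as given by RefSeq on GRCh38.p14 at chr9:99821635-99821934 on the plus strand, and capitals mark TGACG on either strand.
NR4A3: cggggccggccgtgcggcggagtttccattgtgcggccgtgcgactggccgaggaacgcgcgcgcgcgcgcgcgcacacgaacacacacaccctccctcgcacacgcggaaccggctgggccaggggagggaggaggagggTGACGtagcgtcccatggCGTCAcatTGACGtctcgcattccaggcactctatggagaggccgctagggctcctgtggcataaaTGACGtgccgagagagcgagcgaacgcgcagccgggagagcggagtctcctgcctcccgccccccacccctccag
It held 4 matches, which lay -109, -91, -83 and -25 bases from the start site (first base of each match as printed), 3 on the plus strand and 1 on the minus strand. None of the matches overlapped another. Of 35116 RefSeq windows of the same length, 24.6% held at least 1 such match and 0.313% held at least 4. Neither window searched for NR4A1, starting at chr12:52022582 and chr12:52037465, held TGACG. Any other start of NR4A1 was not searched, nor was NR4A2. The full CRE (TGACGTCA, in 1.85% of windows), the NBRE (AAAGGTCA, in 1.22%) and the CArG box bound by SRF (in 1.29%) were searched on both strands and had no match in the 3 NR4A windows. A match is a match of letters and does not show that a factor binds there.

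All 3 receptor mRNAs were more than 10 times as abundant after AI-10-49, measured as FPKM, or fragments mapped to a gene, scaled to its transcript length and to the total mapped in the library. NR4A1, also called Nur77, read 70.6, 57.9 and 72.5 FPKM in AI-10-49 replicates 1, 2 and 3, against 5.90, 6.29 and 6.08 FPKM in the DMSO replicates. The lowest AI-10-49 library was 9.21 times the highest DMSO library. The mean was 67.0 ± 7.93 FPKM with AI-10-49 and 6.09 ± 0.20 FPKM with DMSO (SD, n = 3 each), an 11.01-fold difference. Its log2 fold change, computed on FPKM + 1, was 3.26 ± 0.08 (SE; limma, Benjamini-Hochberg adjusted p = 1.51e-11).

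NR4A2, also called Nurr1 and known for its role in dopamine neurons, read 24.9, 25.2 and 25.3 FPKM in the AI-10-49 libraries, against 2.23, 1.88 and 2.13 FPKM in the DMSO libraries. The 3 treated libraries were nearly equal, and the groups lay far apart. The mean was 25.1 ± 0.20 FPKM with AI-10-49 and 2.08 ± 0.18 FPKM with DMSO (SD, n = 3 each), a 12.1-fold difference. The log2 fold change of FPKM + 1 was 3.09 ± 0.07 (SE; limma adjusted p = 5.06e-12).

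NR4A3, also called NOR1, read 10.003, 11.1 and 10.04 FPKM in the AI-10-49 libraries, against 0.83, 0.72 and 0.83 FPKM in the DMSO libraries. It was the least abundant of the 3 receptors in every library, with no overlap between the groups. The mean was 10.4 ± 0.61 FPKM with AI-10-49 and 0.79 ± 0.06 FPKM with DMSO (SD, n = 3 each), a 13.1-fold difference. The log2 fold change of FPKM + 1 was 2.67 ± 0.08 (SE; limma adjusted p = 5.20e-11). Rows were tested where a group mean reached 1 FPKM, and NR4A3 passed that filter through the AI-10-49 group alone, so its place among tested rows depended on its being high there.

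**Figure D1:**
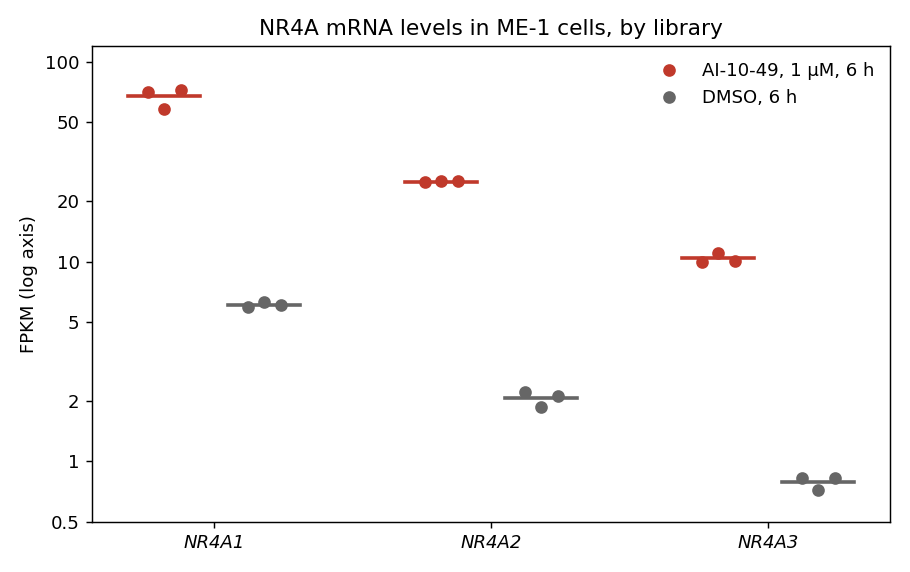
FPKM on a log axis of NR4A1, NR4A2 and NR4A3 in the 3 AI-10-49 libraries (red points, left of each pair) and the 3 DMSO libraries (grey points), with group means as horizontal lines. Treated means of 67.0, 25.1 and 10.4 FPKM stand above DMSO means of 6.09, 2.08 and 0.79 FPKM, and no treated point reaches a DMSO point of the same gene.

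In the table as a whole, 95.3% of the 6230 tested rows passed the same threshold (adjusted p under 0.05), 46.2% higher and 49.1% lower, and the groups did not overlap in 96.2%. Nearly all rows of the deposited table thus differed, so the calls of the receptors are near the background. By size of change, 0.144% of tested rows passed with a log2 fold change of at least 3, and NR4A1 and NR4A2 were among those 9 rows. By log2 fold change NR4A1, NR4A2 and NR4A3 stood at ranks 5, 7 and 20 of 6230. By the ratio of mean FPKM, over rows not at 0 with DMSO, they stood at ranks 20, 18 and 15. For each receptor an exact permutation test (two-sided, 6 libraries) gave p = 0.1, the lowest value possible with 3 libraries against 3. FPKM are relative to the fragments mapped in each library, and in bulk RNA a change in the share of responding cells and a change in RNA per cell cannot be told apart.

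The family kept its order of abundance. NR4A1 supplied 65.2 ± 3.25% of the summed FPKM of the 3 receptors with AI-10-49 and 68.0 ± 2.52% with DMSO (SD, n = 3 each). NR4A2 supplied 24.6 ± 1.88% with AI-10-49 and 23.2 ± 1.88% with DMSO, and NR4A3 supplied 10.2 ± 1.36% with AI-10-49 and 8.81 ± 0.66% with DMSO. For NR4A1 and NR4A2 the treatments differed by less than the larger of the SDs. The NR4A3 share was 9.48%, 11.8% and 9.31% in AI-10-49 replicates 1, 2 and 3, against 9.25%, 8.06% and 9.14% in the DMSO replicates. Its groups just failed to overlap, and its high treated value was that of replicate 2, the library described next. The summed level of the family was 103 ± 7.27 FPKM with AI-10-49 and 8.96 ± 0.07 FPKM with DMSO, an 11.4-fold difference.

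Of the 3 receptors only NR4A1 reached the range in which AI-10-49 replicate 2 read clearly low. Among 579 rows at 50 to 100 FPKM in AI-10-49 replicates 1 and 3, replicate 2 stood at a median of 0.716 of their mean (10th to 90th percentile 0.600 to 0.809). NR4A1 stood at 0.809, at the upper edge of that range. Among 1626 rows at 20 to 50 FPKM the median was 0.906 (0.800 to 0.999) and NR4A2 stood above that range at 1.01. Among 2442 rows at 5 to 20 FPKM the median was 1.06 (0.949 to 1.17) and NR4A3 stood at 1.11. DMSO replicate 2 had medians of 0.952 to 0.985 in the same 3 ranges. Without AI-10-49 replicate 2 the log2 fold changes of NR4A1, NR4A2 and NR4A3 were 3.36, 3.08 and 2.62. Each receptor thus rose in the remaining libraries too, NR4A1 by slightly more.

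**Figure D2:**
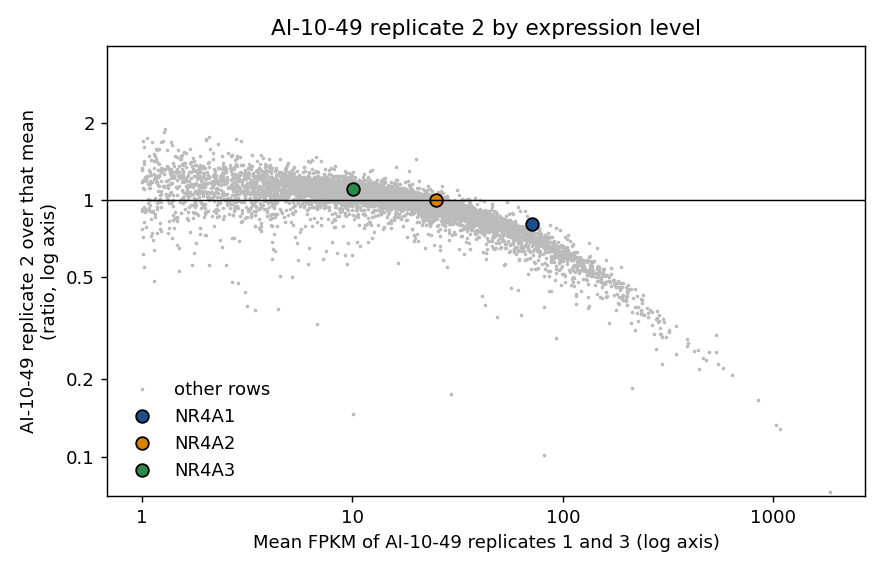
Each grey point is a row of the table, with the mean FPKM of AI-10-49 replicates 1 and 3 on the horizontal log axis and AI-10-49 replicate 2 divided by that mean on the vertical log axis, with a line at equality. The cloud bends below the line as level rises, and NR4A1 (0.809), NR4A2 (1.01) and NR4A3 (1.11) each lie above the median of rows at a like level (0.716, 0.906 and 1.06).

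Which receptor changed most depended on the pseudocount, the constant added to FPKM before taking logs. With a pseudocount of 1 the log2 fold changes ran NR4A1, NR4A2, NR4A3 in falling order (3.26, 3.09 and 2.67). With no pseudocount they ran the other way, at 3.45 ± 0.11 for NR4A1, 3.60 ± 0.07 for NR4A2 and 3.72 ± 0.08 for NR4A3 (SE from the group SDs). A constant of 1 is larger than the DMSO level of NR4A3 and small against that of NR4A1. The log2 ratio of NR4A1 to NR4A2, computed in each library on FPKM + 1, was 1.37 ± 0.18 with AI-10-49 and 1.20 ± 0.12 with DMSO (SD, n = 3 each; difference 0.17, exact two-sided permutation p = 0.3). Without AI-10-49 replicate 2 that difference was 0.27 (exact permutation p = 0.2, the lowest possible with 2 libraries against 3). For NR4A1 and NR4A3 the difference was 0.59 and for NR4A2 and NR4A3 it was 0.42, each with an exact permutation p = 0.1 (0.15 adjusted over the 3 pairs). Without a pseudocount the 3 differences were -0.14, -0.26 and -0.12. No ranking of the receptors by response holds on both scales.

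**Figure D3:**
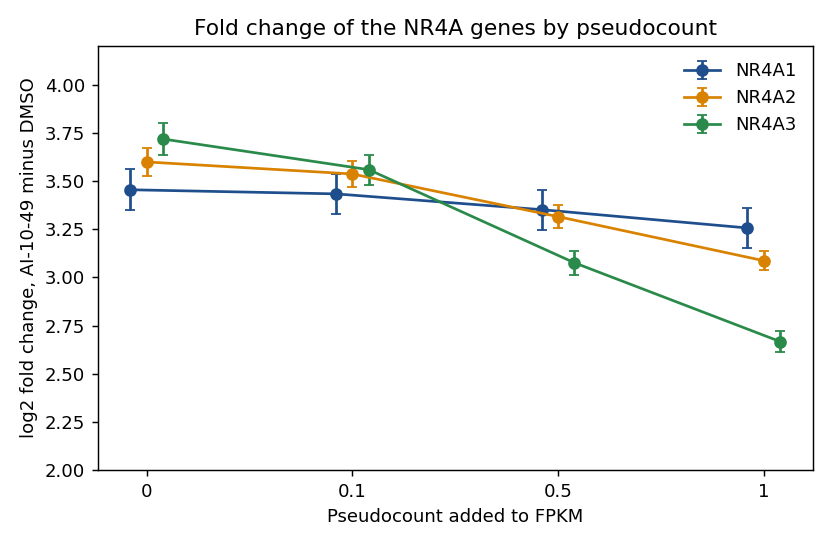
Log2 fold change, AI-10-49 minus DMSO, of each NR4A gene (vertical axis) at 4 pseudocounts (horizontal axis, equally spaced); bars are SE computed from the SDs of 3 libraries per group. NR4A3 is highest with no pseudocount (3.72) and lowest at 1 (2.67), and the order of the 3 genes turns round between 0.1 and 1.

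In the lists below a gene counts as measured where it has a tested row of its own. Listed genes without such a row were not analysed here, so each share covers the measured genes and not the whole list. How the rows of the deposited table were chosen is not stated. The lists were written with earlier results of these data known, so their shares and medians are descriptions and not tests. Genes of the cyclic AMP and CREB pathway, a main input to the NR4A genes, were measured for 18 of 31 listed. Of these 13 rose, 4 fell and 1 did not pass, with a median log2 fold change of 0.64 against -0.28 over all tested rows. The members higher were 72.2% of those measured, against 46.2% of all tested rows. The list mixes genes that act for and against the pathway, so the count does not give the direction of its activity. CREM, which encodes activator and repressor relatives of CREB, read 30.3, 29.0 and 31.1 FPKM in the AI-10-49 libraries, against 6.55, 6.35 and 6.91 FPKM in the DMSO libraries. It rose 4.57-fold with no overlap (log2 fold change 2.03 ± 0.06 SE, limma adjusted p = 5.31e-11). PDE4B, a phosphodiesterase that breaks down cyclic AMP, read 31.6, 30.3 and 29.7 FPKM with AI-10-49, against 8.20, 7.54 and 6.81 FPKM with DMSO. The related PDE4D stood at 13.6 ± 0.98 FPKM with AI-10-49 and 4.74 ± 0.18 FPKM with DMSO (SD, n = 3 each). Both phosphodiesterase genes rose, by 1.89 and 1.35 on the log2 scale. CREBBP, the coactivator that CREB recruits, rose by 0.99, and PTGER2, a prostaglandin E receptor that raises cyclic AMP, fell by 1.21. The member that did not pass was PRKAR1A, a regulatory subunit of protein kinase A, at 141, 74.9 and 147 FPKM with AI-10-49 and 82.8, 79.9 and 82.0 FPKM with DMSO. It was named after its values were seen. Without AI-10-49 replicate 2, PRKAR1A passed at 0.81 and 14 members were higher.

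The calcium, calcineurin and MEF2 list, the second input, was measured for 9 of 24 genes. Of these 8 rose (88.9%, against 46.2% of all tested rows) and 1 fell, with a median of 0.36 (log2). Their changes were small beside those of the receptors. This list, too, mixes genes for and against its pathway, so the count does not give the direction of its activity. NFATC1, a factor activated by calcineurin, rose by 1.00, and MEF2C, a member of the MEF2 family, by 0.69. The class IIa histone deacetylases that repress MEF2 split, with HDAC5 higher by 0.90 and HDAC7 at -0.38. RCAN3, of a family of calcineurin regulators, rose by 0.41.

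The ERK and SRF list, the third input, was measured for 14 of 25 genes, of which 6 rose and 8 fell, with a median of -0.33 (log2). Those shares, 42.9% higher and 57.1% lower, and that median were near those of all tested rows (46.2%, 49.1% and -0.28), so the count says nothing particular of the list. One member that fell, SPRY4, passed the filter through the DMSO group alone, and it was named after its values were seen. DUSP6, a phosphatase gene that ERK induces and whose product switches ERK off, read 22.7, 21.9 and 21.3 FPKM with AI-10-49, against 60.5, 60.5 and 63.5 FPKM with DMSO. It fell by 1.44 on the log2 scale (± 0.08 SE, limma adjusted p = 3.76e-09), with every treated library below every DMSO library. DUSP1, a phosphatase of JNK and p38 that CREB also induces, moved the other way. It read 15.6, 16.8 and 16.7 FPKM with AI-10-49, against 2.28, 2.34 and 2.85 FPKM with DMSO, a 6.58-fold rise (log2 fold change 2.32). SRF itself fell, to 20.4 ± 1.05 FPKM with AI-10-49 against 36.1 ± 2.01 FPKM with DMSO (SD, n = 3 each). RPS6KA4, which encodes the CREB kinase MSK2, fell by 1.37, and RPS6KA2, which encodes the ERK-activated kinase RSK3, rose by 0.94.

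Other immediate early genes did not all follow the receptors. This list, too, was written with earlier results of these data known, so its share of rises is a description. Of 28 measured among 38 listed, 21 rose (75.0%, against 46.2% of all tested rows) and 7 fell, with a median of 1.11 (log2). Of these KLF2 passed the filter through the AI-10-49 group alone and EGR3 through the DMSO group alone, which leaves 20 higher and 6 lower. JUN, an AP-1 subunit, read 123, 68.0 and 120 FPKM with AI-10-49, against 8.13, 7.89 and 7.9998 FPKM with DMSO. Its log2 fold change was 3.49, and 3.77 without AI-10-49 replicate 2, which read lowest of the treated libraries. ATF3, a stress-induced repressor, rose to 49.3 ± 6.14 FPKM with AI-10-49, against 3.27 ± 0.17 FPKM with DMSO (SD, n = 3 each). RGS1, which damps G protein signals, rose by 3.17, and MAFF, a small MAF protein, by 2.89. ZFP36L2, which promotes mRNA decay, was the largest fall at -2.06. The other members that fell, named after their values were seen, were FOSL1, ZFP36L1, IER2, EGR1, EGR3 and TRIB1. IER2 did not pass without DMSO replicate 2 or without DMSO replicate 3 (adjusted p = 0.0587 and 0.0789). EGR1, a zinc finger factor that growth factors induce through SRF, read 3.10, 3.86 and 3.01 FPKM with AI-10-49, against 4.24, 5.09 and 4.51 FPKM with DMSO. FOS, also named after its values were seen, read 13.7, 16.4 and 14.2 FPKM with AI-10-49, against 4.94, 5.09 and 4.28 FPKM with DMSO. By the ratio of means JUN and ATF3 rose 12.96-fold and 15.1-fold, beside 11.01-fold to 13.1-fold for the receptors, while EGR1 fell (log2 fold change -0.38, limma adjusted p = 0.00225).

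**Figure D4:**
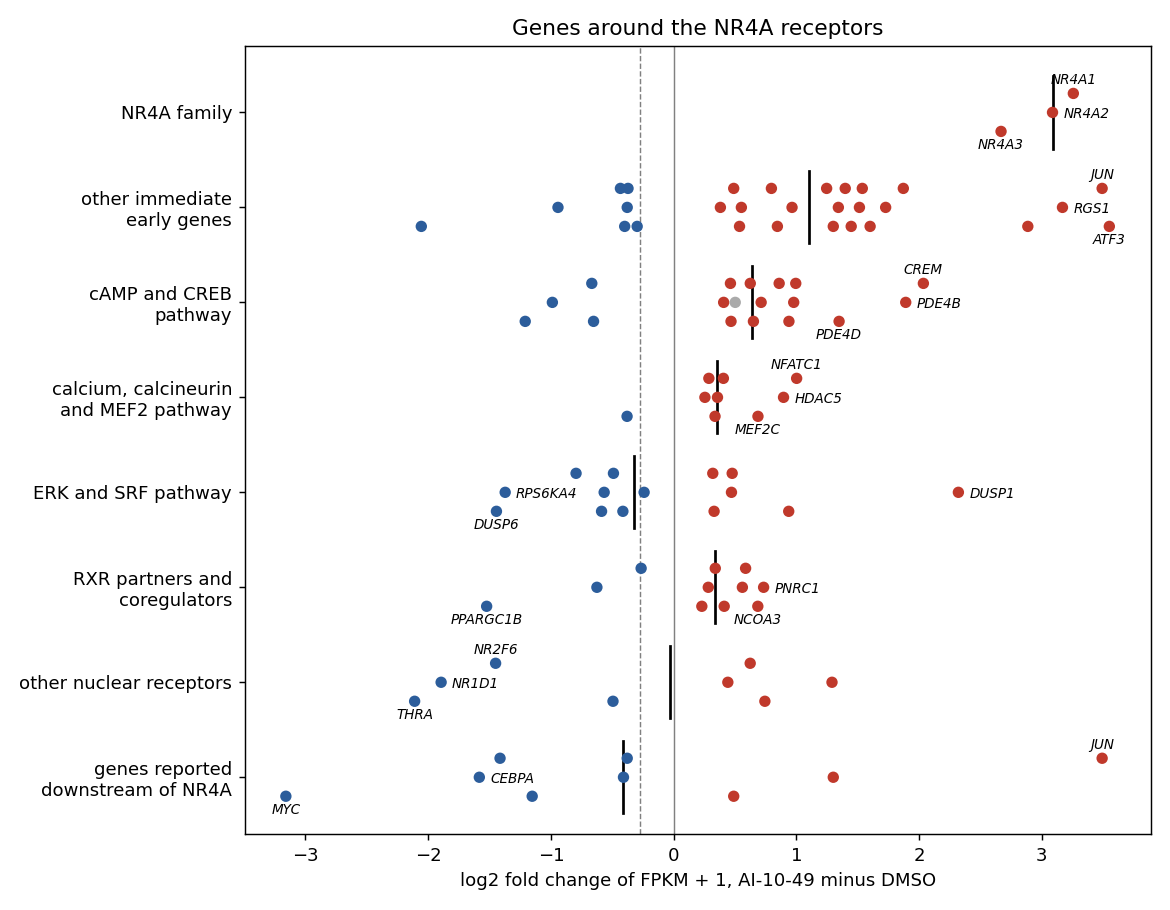
Log2 fold change of FPKM + 1, AI-10-49 minus DMSO (horizontal axis), of each measured member of 8 gene lists (rows), red where higher, blue where lower and grey where not past the threshold; black bars are list medians, the dashed line is the median of all tested rows (-0.28), and the 3 largest changes per list are named. The NR4A genes lie at 2.67 to 3.26, beside JUN, ATF3 and RGS1, while members of the ERK and SRF list lie on both sides of 0.

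The rest of the nuclear receptor superfamily gave 8 genes with a row of their own out of 45 listed, of which 4 rose and 4 fell, with a median of -0.026 (log2), near the shares over all tested rows (46.2% higher and 49.1% lower). The largest rise among these 8 was that of PPARD, a fatty acid sensor, by 1.29, and NR3C1, the glucocorticoid receptor, rose by 0.74. THRA, a thyroid hormone receptor, read 1.79, 2.02 and 2.12 FPKM with AI-10-49, against 12.2, 11.9 and 11.5 FPKM with DMSO, a 5.99-fold fall. NR1D1, the haem-binding clock repressor REV-ERBα, read 3.13, 2.96 and 3.28 FPKM with AI-10-49, against 14.4, 14.7 and 13.8 FPKM with DMSO, a 4.59-fold fall. THRA and NR1D1 overlap on opposite strands, and no source used here says that reads were counted by strand, so their values may share reads. NR2F6, an orphan receptor, fell by 1.45. The retinoid X receptor genes, whose products pair with NR4A1 and NR4A2, were not analysed here. Among partners and coregulators 8 of 11 measured genes rose (72.7%, against 46.2% of all tested rows) and 3 fell, with a median of 0.34 (log2). Named members were PPARGC1B, a coactivator of mitochondrial genes, at -1.52, KDM1A, a histone demethylase, at -0.63, and PNRC1, NCOA3 and NCOA7 at 0.73, 0.69 and 0.59. Without AI-10-49 replicate 2, PNRC1 stood at 0.96. NCOA3 and NCOA7 are coactivators of nuclear receptors. NCOA1, named after its values were seen, did not pass without AI-10-49 replicate 2 (adjusted p = 0.0808), which left 7 higher, nor without DMSO replicate 3 (adjusted p = 0.0817).

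A list of genes that studies in mouse or human cells have placed downstream of NR4A or beside it in leukaemia gave 9 measured genes of 12, of which 3 rose and 6 fell (33.3% and 66.7%, against 46.2% and 49.1% of all tested rows), with a median of -0.41 against -0.28 over all tested rows (log2). MYC, which drives growth, read 27.9, 23.4 and 25.8 FPKM with AI-10-49, against 235, 233 and 242 FPKM with DMSO, a 9.22-fold fall beside the 11.01-fold rise of NR4A1. E2F1, a driver of S phase, fell by 1.41 and CEBPA, a factor of granulocyte development, by 1.58. KLF2, a factor of T cell quiescence, stood at 3.87 ± 0.50 FPKM with AI-10-49 and 0.98 ± 0.28 FPKM with DMSO (SD, n = 3 each), with a log2 fold change of 1.30, and it was tested only because the AI-10-49 group passed the filter. JUN is on this list too. The cell death ligand genes FASLG and TNFSF10 were not analysed here. All libraries were taken at 1 time, so which of these changes came before another was not tested.

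Likeness to each receptor was measured as the root mean square difference, over the 6 libraries, between profiles of log2(FPKM + 1) relative to the DMSO mean. It is small for rows that rose by the same amount on that scale, which is not the same ratio of FPKM, and it is given as a description. Nearest to NR4A1 was RGS1 (0.076), followed by GRASP (0.164), which encodes a scaffold protein, NR4A2 (0.173), ATF3 (0.216) and CHAC1 (0.219), a glutathione-degrading enzyme. Nearest to NR4A2 were HMOX1 (0.127), the haem oxygenase, SYTL3 (0.127), a synaptotagmin-like protein, CHAC1 (0.132), RGS1 (0.141) and NR4A1 (0.173). NR4A1 and NR4A2 were thus among each other's 5 nearest rows. NR4A3 stood 17th from NR4A1 and 13th from NR4A2, and on this scale its smaller change carries the pseudocount. The pseudocount also bears on the near rows that were low with DMSO. Of these, HMOX1 and CHAC1, with DMSO means of 0.70 and 0.38 FPKM, passed the filter through the treated group alone. Their place among tested rows thus depended on their being high there. By the ratio of means CHAC1, GRASP and HMOX1 rose 26.5-fold, 18.3-fold and 18.1-fold, against 11.01-fold for NR4A1 and 12.1-fold for NR4A2. ATF3, RGS1 and SYTL3 rose 15.1-fold, 10.99-fold and 9.37-fold.

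Markers of the labelled cell type and of another lineage were measured too. Of 12 markers of inv(16) myeloid leukaemia 6 had a row, and all 6 fell, as did 49.1% of all tested rows, with a median of -0.77 against -0.28 over all tested rows (log2), led by CEBPA, KIT (-1.04), a stem cell factor receptor, and CD33 (-0.97), a myeloid surface antigen. CBFB, whose product forms part of the fusion protein, changed by -0.42 and was named after its values were seen, and MYH11, its fusion partner, was not analysed here. PRTN3 and ELANE, granule proteases, changed by -0.57 and -0.52. PRTN3, at 0.38 ± 0.17 FPKM with AI-10-49 and 1.06 ± 0.27 FPKM with DMSO (SD, n = 3 each), passed the filter through the DMSO group alone, which leaves 5 lower. The summed level of the 6 was 96.5 to 112 FPKM with AI-10-49 and 238 to 259 FPKM with DMSO, and none was at 0. Of 14 markers of monocytes and macrophages only LYZ, the lysozyme gene, had a row, at 11.1 to 11.5 FPKM with AI-10-49 and 15.1 to 16.0 FPKM with DMSO, and the other 13 were not analysed here. The part of these markers in the NR4A values was not tested.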

How the data were processed

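Per the labels' protocols, libraries were prepared from total RNA with the TruSeq RNA kit. Alignment to hg19 and quantification involved Bowtie2 2.1.0, Cufflinks 2.2.0 and Cuffdiff, per the submitters' processing notes. The authors deposited 1 table of FPKM with 6339 rows and 6 library columns, and how its rows were chosen is not stated. Columns named control and treated were matched to DMSO and AI-10-49 by number. FPKM are not counts, so depth is unknown and no detection limit is given. No protein sequences were used here. RefSeq places an antisense gene over NR4A1, and reads from it could not be told apart.

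Values were analysed as log2(FPKM + 1) with limma 3.58.1 in R 4.3.3 (two-sided, mean-variance trend, Benjamini-Hochberg over 6230 rows with a group mean of at least 1 FPKM, threshold 0.05). The procedure was tested on simulated data in which most rows were unchanged, unlike the deposited table, where 95.3% of tested rows passed. Fold changes on this scale understate those of low genes. Named genes are the NR4A genes, MYC, up to 5 of largest change past the threshold per list, and the 5 nearest rows of NR4A1 and of NR4A2. List members count where they have a tested row of their own. The members and lists were chosen with earlier results of these data known. Permutation tests used SciPy 1.17.1. The same-numbered libraries were not treated as pairs.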

Additional observations from a re-analysis of the deposited data

How the results depend on the processing

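Under 14 alternatives the log2 fold changes of the receptors kept their direction and their call. They changed the pseudocount (0.1 or 0.5), the filter (none, or 5 FPKM), the scaling (quantile or median), the variance trend (none), the design (replicate block) or the libraries (each left out). NR4A1 ranged from 3.20 to 3.46, NR4A2 from 3.04 to 3.54 and NR4A3 from 2.61 to 3.56, with an adjusted p of at most 1.55e-06. Without single libraries they ranged from 3.20 to 3.36, from 3.04 to 3.12 and from 2.62 to 2.69. Comparisons between receptors moved and turned round. NR4A1 minus NR4A2 was 0.39 under quantile normalization (exact permutation p = 0.1) and 0.11 to 0.27 without single libraries, and with a pseudocount of 0.5 the 3 differences were 0.036, 0.28 and 0.24. With a pseudocount of 0.1 the difference was -0.10 for NR4A1 minus NR4A2, -0.13 for NR4A1 minus NR4A3 and -0.022 for NR4A2 minus NR4A3. With no pseudocount, which like both NR4A3 pairs was added after seeing the data, it was -0.14, -0.26 and -0.12. A smaller constant raises the fold of a low gene more, by construction. With the replicate block the differences were 0.17, 0.59 and 0.42 (exact permutation p = 0.5, 0.25 and 0.25, where 3 pairs cannot go below 0.25). The block changed the call of PRKAR1A alone among named genes (0.50, adjusted p = 0.0257). Deviations of same-numbered libraries correlated at -0.15, 0.147 and 0.247 across rows, and those of libraries with unlike numbers at -0.254 to 0.205. With 3 libraries per group these values cannot decide whether the numbers pair the libraries. The number of rows past the threshold ranged from 5018 (filter at 5 FPKM, fewer rows tested) to 6067 (without AI-10-49 replicate 2), against 5939, and quantile normalization moved the median of all rows to -0.06 from -0.28. List counts stayed within 1.5 times, and 597 of 597 values of the other genes named by the rule kept direction and call. PRTN3 fell below the filter without DMSO replicate 2, as did PRTN3, KLF2, ELANE, RCAN3, SPRY4, EGR1, EGR3 and NCOA1 with the filter at 5 FPKM. Of those named after their values were seen, IER2 lost its call under quantile normalization (-0.080, adjusted p = 0.14) and without DMSO replicate 2 or 3, NCOA1 without DMSO replicate 3 or AI-10-49 replicate 2, and PRKAR1A gained one under quantile normalization and without AI-10-49 replicate 2. Precision of low values, NR4A3 with DMSO above all, rests on the spread between 3 libraries alone.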
